A study of Mus musculus with 12 samples.

Results

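Transcripts of 9 genes of the Fanconi anaemia and homologous recombination pathways (Brca1, Brca2, Palb2, Brip1, Fanca, Fancd2, Fanci, Blm and Exo1) were followed in 12 RNA-seq libraries of HT22 cells, an immortalised mouse hippocampal cell line. They were selected by gene symbol, all 9 were found among the 24343 genes used, and all 9 passed the filter on low values that left 11924 genes for testing. The libraries formed 4 groups of 3. Cells received a negative control siRNA (siControl) or an siRNA against Ncoa4 (siNCOA4), the receptor that delivers ferritin to autophagy, and each of these was grown without chelator or with 100 µM of the iron chelator deferoxamine for 24 h (siControl+DFO and siNCOA4+DFO). All groups were thus transfected, a single siRNA sequence represented the loss of Ncoa4, and the labels call the 3 libraries of a group biological replicates, here of 1 cell line.

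The Fanconi pathway repairs crosslinks between DNA strands and protects stalled replication forks. A core complex that holds FANCA attaches ubiquitin to the FANCD2 and FANCI pair, nucleases then cut around the lesion, and the resulting break is restored by homologous recombination. In that second arm ends are trimmed by nucleases such as EXO1, BRCA1 and PALB2 bring in BRCA2, BRCA2 acts on the single-stranded DNA so formed, and the BLM helicase dissolves the joined molecules. BRIP1, also known as FANCJ, is a helicase that binds BRCA1 and carries an iron-sulfur cluster, so iron is part of its structure. Most of these genes are transcribed mainly in cycling cells around S phase.

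Values were deposited as FPKM, a fragment count divided by transcript length and by the library's mapped fragments, a unit that permits comparison of levels between genes. Differences are given as log2 fold changes on the log2(FPKM + 0.1) scale, and a gene was called when the adjusted p of limma, corrected over all 11924 genes within a comparison by the Benjamini-Hochberg method, was below 0.05. Ncoa4 itself stood at 6.46, 6.19 and 6.02 FPKM in siControl and at 0.770, 0.952 and 0.891 FPKM in siNCOA4. With DFO, it stood at 8.70, 8.31 and 7.52 FPKM in siControl+DFO and at 0.850, 1.29 and 1.57 FPKM in siNCOA4+DFO. The target fell by 2.71 (log2, adjusted p = 1.25e-05, limma) without DFO and by 2.67 (adjusted p = 2.83e-05, limma) with DFO, and no library went against its label. Summed FPKM per library ran from 565558 to 737313, and log2 profiles within a group correlated at 0.926 to 0.955 across genes. Of 7 neuronal markers, 6 (Map2, Rbfox3, Snap25, Syt1, Dcx and Nefl) never exceeded 0.179 FPKM and were thus near 0 in this line. The collagen gene Col1a1 ranged from 73.4 to 439 FPKM. The other neuronal marker, the tubulin gene Tubb3, stood at 4.56 to 13.6 FPKM. Summed FPKM of 4 fibroblast markers ranged from 1280 to 1570 in siControl and from 347 to 464 in siControl+DFO, and their part in the results below was not tested.

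Brca1, Blm and Brca2 carried the changes among the 9 genes. Brca1 and Blm were higher with DFO in both siRNA backgrounds, and Brca2 was higher in siNCOA4+DFO than in each of the other 3 groups. Because these 3 genes moved, their promoters (250 bases before to 50 bases after the transcript start, RefSeq, build GRCm38.p6, printed 5′ to 3′ on the strand of the gene) are shown with that of Fanca, which was not called in any comparison. Capitals mark CCAAT boxes and 4 forms of the E2F core, each searched on both strands. The core was written as TTCCCGC in its common form, and the forms with other middle letters were TTGGCGC in one case, TTCGCGC in another and TTGCCGC in the last. No marked core overlapped a CCAAT box.
Brca1 (chr11:101551906-101552205, minus strand): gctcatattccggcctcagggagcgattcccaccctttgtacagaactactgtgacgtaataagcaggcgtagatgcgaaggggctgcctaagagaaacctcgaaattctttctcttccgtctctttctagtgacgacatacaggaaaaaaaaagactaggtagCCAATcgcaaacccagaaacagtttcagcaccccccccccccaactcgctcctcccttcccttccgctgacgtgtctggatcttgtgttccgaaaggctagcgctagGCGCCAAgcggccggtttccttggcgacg
Blm (chr7:80534949-80535248, minus strand): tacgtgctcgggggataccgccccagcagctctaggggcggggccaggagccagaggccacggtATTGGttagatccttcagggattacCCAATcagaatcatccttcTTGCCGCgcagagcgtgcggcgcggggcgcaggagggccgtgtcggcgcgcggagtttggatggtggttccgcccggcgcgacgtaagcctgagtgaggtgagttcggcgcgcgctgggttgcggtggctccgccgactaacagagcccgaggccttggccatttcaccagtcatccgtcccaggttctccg
Brca2 (chr5:150522371-150522670, plus strand): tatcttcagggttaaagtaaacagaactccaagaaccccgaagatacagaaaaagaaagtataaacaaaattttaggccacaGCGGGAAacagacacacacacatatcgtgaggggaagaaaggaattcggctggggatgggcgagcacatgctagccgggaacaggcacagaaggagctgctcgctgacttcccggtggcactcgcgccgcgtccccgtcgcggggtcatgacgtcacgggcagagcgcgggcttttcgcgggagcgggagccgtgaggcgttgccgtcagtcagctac
Fanca (chr8:123318527-123318826, minus strand): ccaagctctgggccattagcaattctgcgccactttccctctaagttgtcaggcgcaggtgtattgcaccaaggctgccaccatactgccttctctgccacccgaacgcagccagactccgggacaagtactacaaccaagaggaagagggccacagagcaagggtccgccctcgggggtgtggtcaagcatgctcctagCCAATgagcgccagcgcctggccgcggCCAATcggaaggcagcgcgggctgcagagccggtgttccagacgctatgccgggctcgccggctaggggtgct
The E2F core, the letters bound by the E2F factors that drive S-phase genes, was found once each in the windows of Brca1, Blm and Brca2, at positions 21, -142 and -168 from the transcript start. Of the 7 genes with an entry in the promoter table, 5 held a core, the others being Fanci and Brip1, which were not called in any comparison. Fanca and Palb2, also not called in any, held none. The core occurred in 9.57% of 32851 promoters and in 17.8% of the 8996 promoters of tested genes. A CCAAT box was present in Brca1, Blm, Fanca, Brip1 and Palb2, against 37.4% of all promoters. ACGTG, the core of the site of the hypoxia-inducible factors, was found in Brca1 and Blm alone among the 7, against 19.6% of all promoters and 26.6% of those of tested genes. In mm10 coordinates Brca1 spans chr11:101488764-101551955 on the minus strand with 23 exons in its longest transcript, Blm chr7:80454733-80535119 on the minus strand with 22, and Brca2 chr5:150522630-150570329 on the plus strand with 27.

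In untreated siControl cells Brca1 was the most abundant of the 9 transcripts, at 27.8 ± 1.92 FPKM (mean ± SD, n = 3), which placed it above 76.3% of tested genes. Blm (14.2 FPKM), Fanca (13.6 FPKM) and Brca2 (13.0 FPKM) followed, above the median gene at 11.1 FPKM. Exo1 (10.4 FPKM), Brip1 (9.48 FPKM), Fanci (9.32 FPKM) and Fancd2 (6.83 FPKM) were lower, and Palb2 (5.20 FPKM) was the least abundant. Neighbours in this order overlapped between libraries for Fanca and Brca2, Exo1 and Brip1, and Brip1 and Fanci. The highest group mean exceeded the lowest by 1.82 times for Brca2, 1.78 times for Blm and 1.43 times for Brca1, and by 1.09 to 1.25 times for the other 6 genes.

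**Figure D1:**
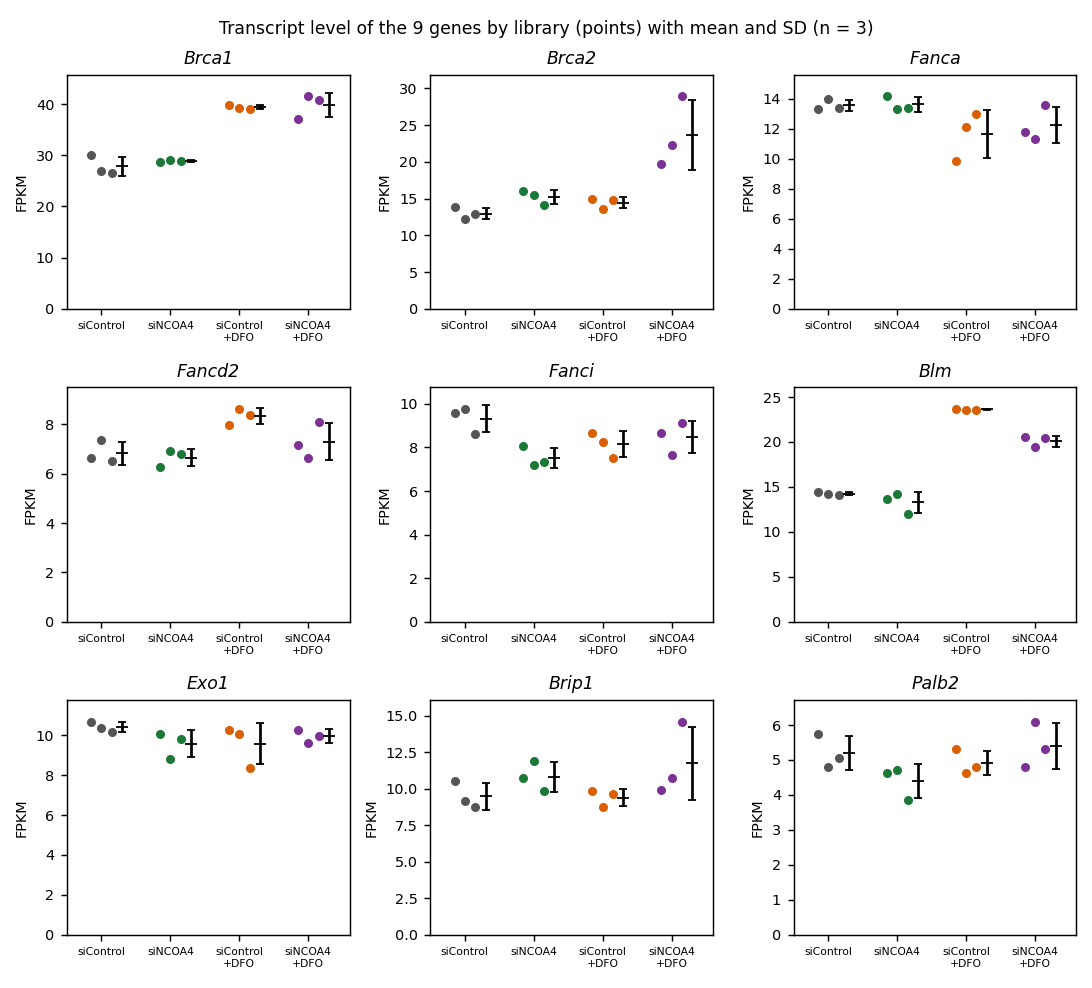
FPKM of each of the 9 genes (vertical axes, from 0) in the 12 libraries (points, coloured by group) with the mean and SD of each group of 3 beside them. Brca1 and Blm step up in both DFO groups, Brca2 stands apart in siNCOA4+DFO, where its libraries run from 19.7 to 29.0 FPKM, and the other panels are nearly level.

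DFO alone, compared in siControl cells, addressed how iron chelation changes these transcripts when Ncoa4 is present. Brca1 and Blm rose, none of the 9 fell, and the other 7 were not called. In this comparison 27.7% of all tested genes were called higher and 25.7% lower, so 2 of 9 higher was near the background. Brca1, the scaffold that directs ends into recombination, stood at 30.0, 26.9 and 26.5 FPKM in siControl and at 39.9, 39.3 and 39.0 FPKM in siControl+DFO. All DFO libraries lay above all control libraries. Its log2 fold change was 0.50 (SE 0.07, 95% interval 0.35 to 0.66, adjusted p = 8.56e-05, limma), or 1.42 times. Blm, the helicase that dissolves joined molecules, stood at 14.4, 14.2 and 14.1 FPKM in siControl and at 23.7, 23.6 and 23.6 FPKM in siControl+DFO. The groups were widely separated and the replicates nearly identical, with a coefficient of variation of 0.207% in siControl+DFO. Its log2 fold change was 0.73 (SE 0.08, 95% interval 0.55 to 0.90, adjusted p = 1.05e-05, limma), or 1.65 times. The longest transcripts of Brca1 and Blm have 6572 and 4770 bases, and the median change of tested genes of 4000 to 6000 bases was 0.05 and of 6000 to 8000 bases 0.08 in this comparison.

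Neither gene of the ubiquitinated pair of the Fanconi pathway was called. Fancd2 stood at 6.63, 7.37 and 6.5 FPKM in siControl and at 7.98, 8.64 and 8.39 FPKM in siControl+DFO. The groups did not overlap, but its log2 fold change of 0.28 (95% interval 0.04 to 0.53) just missed the threshold (adjusted p = 0.052, limma). It was called under some other settings, for example at an adjusted p of 0.0448 when only genes with FPKM of at least 2 were tested. Its partner Fanci stood at 9.57, 9.78 and 8.61 FPKM in siControl and at 8.68, 8.25 and 7.51 FPKM in siControl+DFO, with overlapping groups and a log2 fold change of -0.19 (95% interval -0.44 to 0.05, adjusted p = 0.167, limma). The ratio of Fancd2 to Fanci within a library was 0.693 to 0.755 in siControl, 0.778 to 0.965 in siNCOA4, 0.919 to 1.12 in siControl+DFO and 0.826 to 0.89 in siNCOA4+DFO. All 3 treated groups lay above siControl without overlap. Fanci shares 16% of its exon bases with Polg on the other strand, and since the use of strand in counting was not stated, reads from this stretch cannot be assigned to either gene with certainty. Fancd2 shares 3.24% with Fancd2os in the same way. Fanca, the core complex subunit, stood at 13.3, 14.0 and 13.4 FPKM in siControl and at 9.88, 12.1 and 13.0 FPKM in siControl+DFO. Every DFO library was lower than every control library, with a log2 fold change of -0.23 (95% interval -0.47 to 0.02, adjusted p = 0.108, limma), which became -0.30 (adjusted p = 0.037, limma) under quantile scaling. Fanca exons share 10.5% of their bases with Zfp276 on the other strand and carry the same uncertainty.

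The other genes of the 9 that act at the break and in strand exchange were not called with DFO in siControl cells. Brca2, which acts in strand exchange, stood at 13.8, 12.2 and 12.9 FPKM without and at 15, 13.6 and 14.8 FPKM with DFO. The groups overlapped and the log2 fold change was 0.16 (95% interval -0.12 to 0.43, adjusted p = 0.32, limma). Palb2, the bridge between BRCA1 and BRCA2, stood at 5.74, 4.79 and 5.06 FPKM without and at 5.31, 4.64 and 4.80 FPKM with DFO, a difference of -0.08 (95% interval -0.39 to 0.24). Exo1, the end-trimming nuclease, stood at 10.7, 10.4 and 10.2 FPKM without and at 10.3, 10.1 and 8.39 FPKM with DFO, a difference of -0.12 (95% interval -0.35 to 0.11). The iron-sulfur helicase gene Brip1 stood at 10.5, 9.14 and 8.76 FPKM without and at 9.85, 8.71 and 9.61 FPKM with DFO, a difference of -0.01 (95% interval -0.33 to 0.31). All 3 overlapped between the groups, and their intervals leave room for changes of up to 0.39 (log2).

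The same treatment in siNCOA4 cells used 6 other libraries. Brca1, Blm and Brca2 rose, and none of the 9 fell, where 23.1% of all tested genes were called higher and 19.6% lower. Brca1 went from 28.6, 29.0 and 28.9 FPKM in siNCOA4 to 37.1, 41.6 and 40.7 FPKM in siNCOA4+DFO, again without overlap. Its log2 fold change was 0.46 (SE 0.07, adjusted p = 0.00026, limma), close to the 0.50 seen in siControl cells. Blm went from 13.6, 14.2 and 12 FPKM to 20.5, 19.4 and 20.4 FPKM, a change of 0.60 (SE 0.08, adjusted p = 8.27e-05, limma). Every siNCOA4+DFO library of Blm lay above every untreated library and below every siControl+DFO library. Across the 9 genes the direction was shared between the 2 siRNA backgrounds for 5, beside 9826 of the 11924 tested genes, and both genes called in siControl cells were called with the same sign in siNCOA4 cells. Across all tested genes 4205 were called in both with the same sign and 20 with opposite signs.

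**Figure D2:**
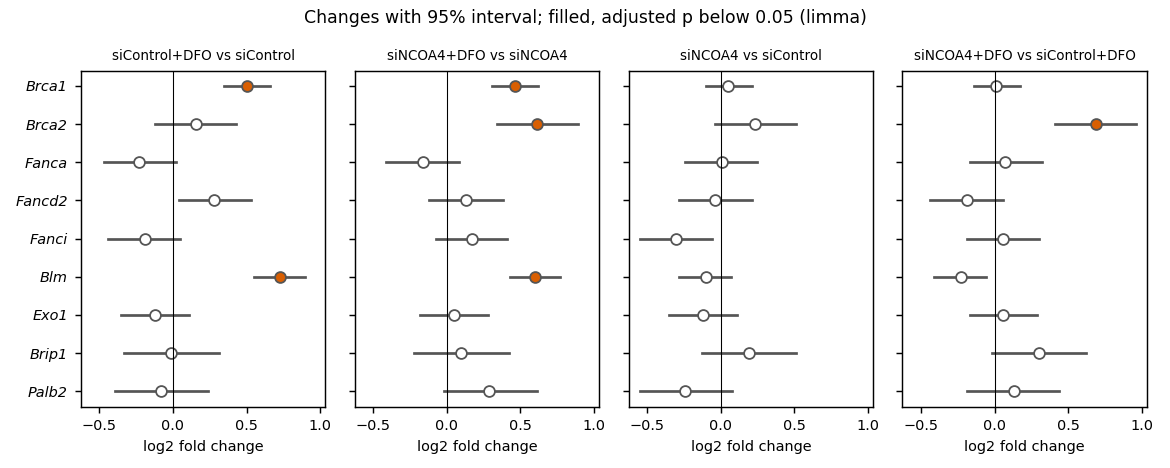
Log2 fold change (horizontal axes) of each of the 9 genes with its 95% interval in 4 comparisons, where filled points have an adjusted p below 0.05 (limma). Brca1 and Blm are filled in both DFO panels, Brca2 is filled in siNCOA4+DFO vs siNCOA4 (0.61) and in siNCOA4+DFO vs siControl+DFO (0.69), and no point is filled in siNCOA4 vs siControl.

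Knockdown of Ncoa4 without DFO called none of the 9 genes, where limma called 4.52% of tested genes higher and 7.21% lower. At an unadjusted p below 0.05 there was 1, Fanci, at 8.05, 7.18 and 7.35 FPKM in siNCOA4 against 8.61 to 9.78 FPKM in siControl. Its groups did not overlap, and the log2 fold change was -0.30 (95% interval -0.55 to -0.06, adjusted p = 0.103, limma). The groups also did not overlap for Palb2 (-0.24) and Exo1 (-0.12), both lower, and for Brca2 (0.23), higher. That made 1 gene higher and 3 lower without overlap, against 14.9% and 17.6% of all tested genes. In siNCOA4 Palb2 stood at 4.63, 4.71 and 3.85 FPKM and Exo1 at 10.1, 8.84 and 9.84 FPKM. Brca1 (0.05, 95% interval -0.10 to 0.21) had the narrowest interval, and Fanca (0.01, 95% interval -0.24 to 0.25), at 14.2, 13.3 and 13.4 FPKM, had the smallest difference.

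Brca2 was the one gene of the 9 that differed between the siRNAs under DFO. It stood at 16.1, 15.5 and 14.2 FPKM in siNCOA4, at 15, 13.6 and 14.8 FPKM in siControl+DFO, and at 19.7, 22.3 and 29.0 FPKM in siNCOA4+DFO. Every siNCOA4+DFO library was higher than all 9 others, but the 3 were spread, with a coefficient of variation of 20.2% against 5.04% to 6.42% in the other groups. The log2 fold change was 0.69 against siControl+DFO (SE 0.13, 95% interval 0.41 to 0.96, adjusted p = 0.00392, limma), or 1.61 times. Between these groups 6.22% of tested genes were called higher and 10.2% lower. Against siNCOA4 it was 0.61 (adjusted p = 0.00191, limma), and against siControl 0.84 (95% interval 0.57 to 1.12, adjusted p = 0.000146, limma), or 1.80 times. Whether DFO acted differently in the 2 backgrounds was asked by the interaction of siRNA and DFO, which was 0.46 for Brca2 (SE 0.18, 95% interval 0.07 to 0.85) with an unadjusted p of 0.0247 and an adjusted p of 0.197 (limma), so the difference between backgrounds was not called. Across all tested genes limma called 0.671% of interactions positive and 1.43% negative, and of the 9 genes it called 0, with 2 (Brca2 and Fanci) at an unadjusted p below 0.05.

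Replicate 3 of siNCOA4+DFO was the highest library for both Brca2 and Brip1. Brca2 lay 0.47 and Brip1 0.50 (log2) above the mean of the other 2 replicates there. Fanca (0.24), Fancd2 (0.23) and Fanci (0.16) were also highest in that library among those of siNCOA4+DFO. Blm (0.03), Brca1 (0.05), Palb2 (-0.03) and Exo1 did not stand apart. In that library tested genes with a longest transcript of at least 8000 bases had a median of 0.12 above, and those of 1000 to 2000 bases a median of 0.09 below, the other replicates (log2). The longest transcript has 10724 bases for Brca2, 6931 bases for Brip1 and 4485 bases for Fanca. It has 7796 bases for Exo1 and 6572 bases for Brca1, which did not stand apart in that library. Replicate 1 of siControl had a larger difference of this kind, with a median of 0.22 for genes of at least 8000 bases and of -0.24 for those under 1000, and it was the highest siControl library for Brca1, Brca2, Blm, Exo1, Brip1 and Palb2. The part of transcript length in these values was not tested. Leaving out 1 library at a time, the Brca2 difference between the siRNAs under DFO ran from 0.53 to 0.81 with adjusted p from 0.00225 to 0.0189 (limma). Between siNCOA4+DFO and siControl+DFO the median of the 615 tested genes of at least 8000 bases was 0.03. Brip1 stood at 10.7, 11.9 and 9.82 FPKM in siNCOA4 and at 9.88, 10.7 and 14.6 FPKM in siNCOA4+DFO. Its groups did not overlap under DFO, but the difference between the siRNAs was 0.30 (95% interval -0.02 to 0.62, adjusted p = 0.181, limma).

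The other 8 genes were not called between siNCOA4 and siControl cells under DFO. Blm came closest, each siNCOA4+DFO library lying below each siControl+DFO library, with a log2 fold change of -0.23 (95% interval -0.41 to -0.06, adjusted p = 0.067, limma). Fancd2 stood at 7.17, 6.63 and 8.12 FPKM in siNCOA4+DFO and overlapped the siControl+DFO libraries, at -0.19 (95% interval -0.44 to 0.06). Brca1 was level, at 0.01 (95% interval -0.14 to 0.17). Fanci (8.68, 7.66 and 9.12 FPKM), Fanca (11.8, 11.3 and 13.6 FPKM), Exo1 (10.3, 9.63 and 9.97 FPKM) and Palb2 (4.80, 6.10 and 5.31 FPKM) in siNCOA4+DFO all overlapped siControl+DFO. Their log2 fold changes lay between 0.06 and 0.13.

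The combination of siRNA and chelator against untreated siControl cells called Brca1, Blm and Brca2 higher and none lower, 3 of 9, against 25.4% of all tested genes higher and 23.4% lower. Brca1 was 1.43 times its level in siControl (0.52, adjusted p = 8.21e-05, limma) and Blm 1.41 times (0.49, adjusted p = 0.000262, limma). The summed FPKM of the 9 transcripts was 106 to 115 in siControl and 106 to 112 in siNCOA4. With DFO it was 129 to 131 in siControl+DFO and 130 to 151 in siNCOA4+DFO, so the libraries with DFO did not overlap those without. Summed FPKM of all genes separated in the same way, at 565558 to 627826 without DFO and 676428 to 737313 with it. No gene of the 9 changed by more than 2 times in any of the 6 comparisons.

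Because the proteins act as pairs, ratios of partner transcripts were taken within each library. Brca2 relative to Brca1 was 0.453 to 0.488 in siControl, 0.492 to 0.564 in siNCOA4, 0.347 to 0.379 in siControl+DFO and 0.532 to 0.713 in siNCOA4+DFO. It was thus lowest with DFO alone and did not overlap any other group there. Brca1 relative to Palb2 was 5.22 to 5.62 in siControl, 6.17 to 7.49 in siNCOA4, 7.52 to 8.46 in siControl+DFO and 6.81 to 7.74 in siNCOA4+DFO, so each treated group lay above siControl. Blm relative to Exo1 was 1.34 to 1.39 in siControl, 2.29 to 2.81 in siControl+DFO and 2.00 to 2.04 in siNCOA4+DFO. Blm relative to Top3a, its topoisomerase partner, was 1.16 to 1.36 in siControl and 1.39 to 1.63 in siControl+DFO, without overlap, and 1.29 to 1.71 in siNCOA4 and 1.14 to 1.48 in siNCOA4+DFO, both overlapping siControl.

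**Figure D3:**
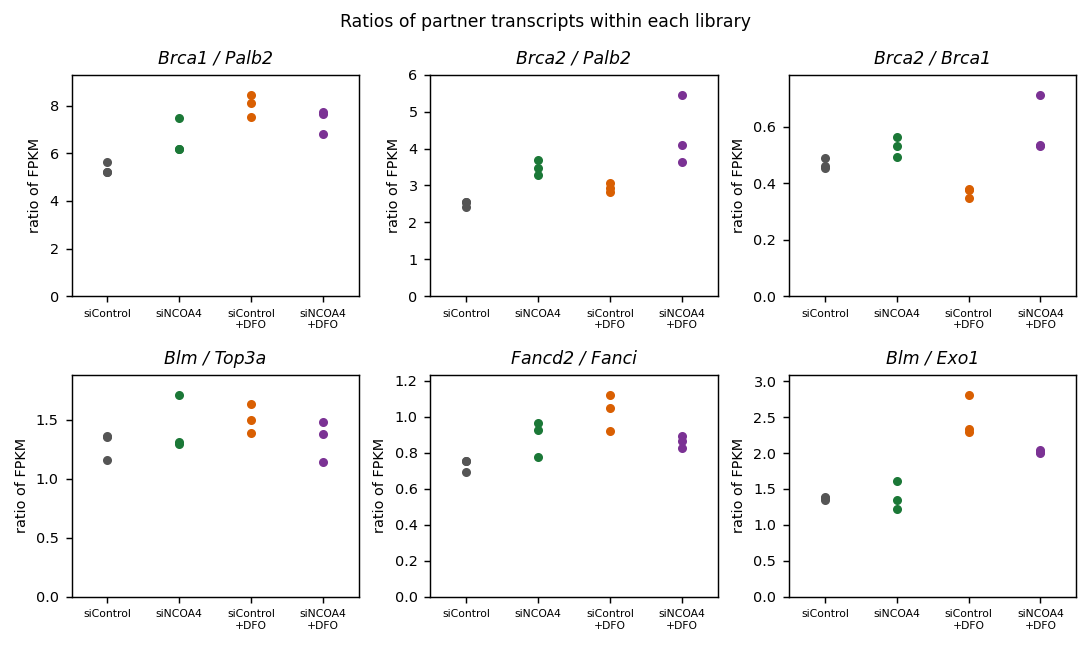
Ratio of the FPKM of partner transcripts (vertical axes, from 0) in each library (points), by group. Brca2 to Brca1 is lowest in siControl+DFO (0.347 to 0.379), and Blm to Exo1 is higher in both DFO groups than in the groups without it.

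Genes called in the rest of the pathway went in both directions. The counts of the lists in siControl+DFO vs siControl stand beside 27.7% of all tested genes called higher and 25.7% lower, and those in siNCOA4+DFO vs siNCOA4 beside 23.1% higher and 19.6% lower, and no list was tested against the other genes. In siControl+DFO vs siControl, of 13 further Fanconi core and ubiquitination genes 1 rose and 5 fell, with a median of -0.33 against -0.01 over all tested genes. Those with the largest changes were the core subunits Fancc (-1.11, adjusted p = 0.0212), Fancf (-1.03, adjusted p = 0.00133) and Faap100 (-0.83, adjusted p = 0.00961, all limma). Fancf went from 5.61 ± 0.665 FPKM to 2.68 ± 0.126 FPKM (SD, n = 3), and Fancc from 3.04 ± 0.792 to 1.51 ± 0.854 FPKM. In siNCOA4+DFO vs siNCOA4 none of the 13 rose and 3 fell. There Fancf fell by 0.59 (log2, adjusted p = 0.0382), and Fancc (-0.40, adjusted p = 0.404) and Faap100 (0.05, adjusted p = 0.883, all limma) were not called. Fancl, the ubiquitin ligase of the complex, was not called with DFO in siControl cells (0.09). It rose with siNCOA4 alone, from 22.3 ± 1.11 to 33.0 ± 0.541 FPKM (0.56, adjusted p = 0.0146, limma), and fell with DFO in siNCOA4 cells by 0.37 (log2, adjusted p = 0.0321, limma). Its interaction of siRNA and DFO was not called (-0.47, adjusted p = 0.195, limma). Of 10 genes for incision and for removal of ubiquitin 3 rose with DFO in siControl cells, near the 27.7% of all tested genes, and none fell. The 3 were the nuclease subunit Ercc1 (1.19, adjusted p = 0.000487), the nuclease scaffold Slx4 (0.37, adjusted p = 0.00893) and Wdr48, a cofactor of the deubiquitinase USP1 (0.30, adjusted p = 0.00906, all limma).

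Of 13 further genes of strand exchange 3 rose and 5 fell in siControl+DFO vs siControl (median -0.04), and in siNCOA4+DFO vs siNCOA4 1 rose and 2 fell. The shares over all tested genes were 27.7% higher and 25.7% lower, and 23.1% and 19.6%, respectively. Rad52, which anneals single strands, rose in siControl cells (1.15, adjusted p = 0.000959, limma), whereas the strand exchange factor Xrcc3 fell by 1.36 (log2, adjusted p = 0.00731, limma), from 2.09 ± 0.761 to 0.734 ± 0.168 FPKM. In end resection 2 of 8 genes rose and 3 fell with DFO in siControl cells. Rbbp8, the partner of the MRE11 nuclease, rose (0.55, adjusted p = 0.000169), and the RPA subunit Rpa3 fell by 0.54 (log2, adjusted p = 0.0125, both limma). Dna2, an iron-sulfur nuclease and helicase, stood at 9.03 ± 1.08 FPKM in siControl, 5.39 ± 0.834 FPKM in siControl+DFO and 8.76 ± 1.61 FPKM in siNCOA4+DFO. It fell with DFO alone by 0.74 (log2, adjusted p = 0.00193, limma) and was higher in siNCOA4+DFO than in siControl+DFO (0.69, adjusted p = 0.0128, limma). Its interaction of siRNA and DFO was not called (0.86, adjusted p = 0.0706, limma). Among 4 further genes for the processing of joined molecules Top3a (0.50, adjusted p = 0.00468) and the resolvase Gen1 (0.55, adjusted p = 0.00296) rose and Rmi2 fell by 0.49 (log2, adjusted p = 0.00816, all limma).

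Of 14 checkpoint genes 7 rose and 2 fell in both DFO comparisons, beside 27.7% higher and 25.7% lower of all tested genes in siControl cells and 23.1% and 19.6% in siNCOA4 cells, with medians of 0.16 in siControl and 0.32 in siNCOA4 cells. Atm, the kinase that responds to breaks, stood at 11.4 ± 1.42 FPKM in siControl, 20.5 ± 1.21 FPKM in siControl+DFO and 26.1 ± 1.83 FPKM in siNCOA4+DFO. It rose with DFO (0.85, adjusted p = 1.81e-05, limma) and was higher again in siNCOA4+DFO than in siControl+DFO (0.35, adjusted p = 0.0335, limma). Clspn, the claspin adaptor of the replication checkpoint, also rose with DFO in siControl cells (0.71, adjusted p = 1.14e-05) and in siNCOA4 cells (0.57, adjusted p = 0.000122, both limma). Unlike Atm, Clspn was lower in siNCOA4+DFO than in siControl+DFO (-0.35, adjusted p = 0.0108, limma). Rad9a, a subunit of the checkpoint clamp, rose (0.80, adjusted p = 0.00113) and Wee1, the kinase that holds back mitosis, fell by 1.22 (log2, adjusted p = 8.71e-06, both limma) with DFO in siControl cells. In the competing pathway of end joining 1 of 9 genes rose and 2 fell with DFO in siControl cells, Xrcc4 rising (0.59, adjusted p = 0.00782), Polm (-0.54, adjusted p = 0.00311) and Xrcc6 (-0.47, adjusted p = 0.000294, all limma) falling. Xrcc4 also rose with siNCOA4 alone (0.71, adjusted p = 0.0148, limma), and Xrcc6 was higher in siNCOA4+DFO than in siControl+DFO (0.35, adjusted p = 0.0105, limma).

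BRIP1 belongs to the DNA enzymes that hold an iron-sulfur cluster, and 10 others were examined beside it. With DFO in siControl cells 1 rose and 4 fell (median -0.13), and in siNCOA4 cells 2 rose and 1 fell (median 0.10). Of all tested genes 27.7% rose and 25.7% fell, and 23.1% rose and 19.6% fell, in the same comparisons. The fallen genes included the glycosylase Mutyh (-1.93, adjusted p = 0.00756), which was low throughout at 2.18 ± 0.702 FPKM in siControl, and the polymerase subunit Pold1 (-0.84, adjusted p = 0.000268, both limma). The primase subunit Prim2 was higher in siNCOA4+DFO than in siControl+DFO (0.32, adjusted p = 0.0343, limma), as was Dna2. Over the 71 genes of the other 7 repair and checkpoint lists, which also hold Dna2, 37 were called with DFO in siControl cells and 22 in siNCOA4 cells. Of these 20 were called in both with the same sign and 0 with opposite signs, and 63 of the 71 had the same sign whether or not they were called. Among all 11924 tested genes 6365 and 5095 were called in these comparisons, and 9826 had the same sign in both whether or not they were called.

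**Figure D4:**
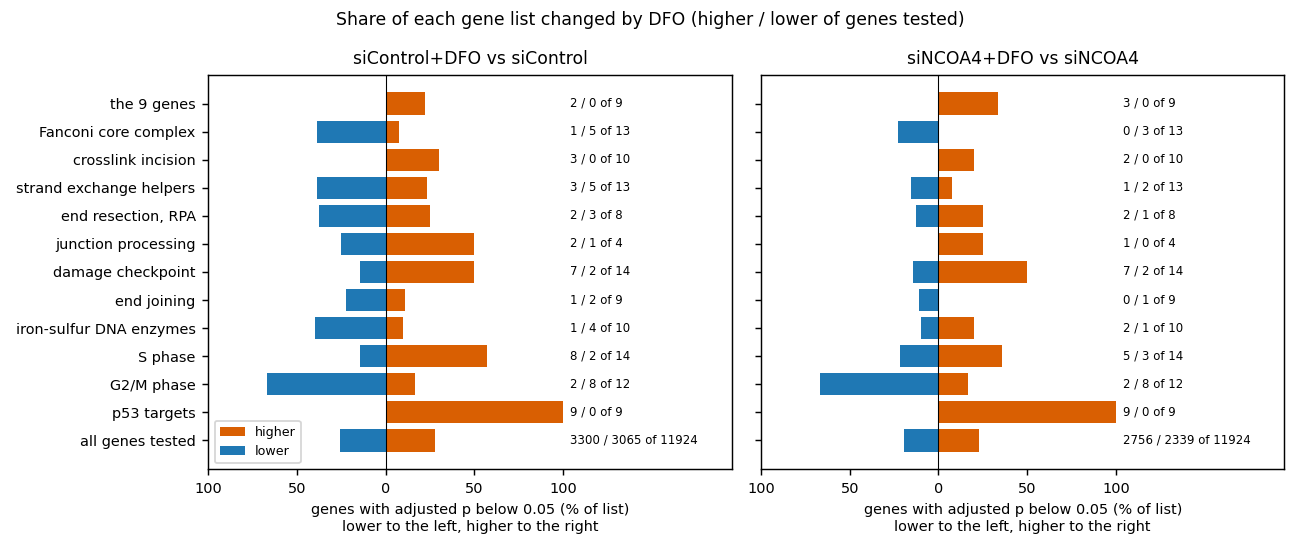
Percent of each gene list called higher (to the right) or lower (to the left) with DFO in siControl cells and in siNCOA4 cells, with the counts beside the bars and all tested genes at the bottom. The p53 targets are all higher (9 of 9), G2/M genes are mostly lower (8 of 12 in both panels), and most repair lists have bars on both sides with DFO in siControl cells.

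Cell cycle genes moved in the same libraries as Brca1 and Blm. Of 14 S-phase genes 8 rose and 2 fell in siControl+DFO vs siControl (median 0.43), and of 12 G2/M genes 2 rose and 8 fell (median -0.64), beside 27.7% higher and 25.7% lower of all tested genes. The licensing factor Cdt1 went from 43.4 ± 5.16 to 89.1 ± 4.66 FPKM (1.04, adjusted p = 1.41e-05), Cdc6 changed by 0.99 (adjusted p = 2.86e-06), and the mitotic kinase Plk1 fell by 2.23 (log2, adjusted p = 5.07e-07, all limma). Cyclin E2 (Ccne2) rose by 1.93 (adjusted p = 2.63e-08, limma) with DFO in siControl cells. Of the 14 S-phase genes 8 were lower and 0 higher in siNCOA4+DFO than in siControl+DFO, beside 10.2% lower and 6.22% higher of all tested genes. The lower ones included Cdt1 (-0.54, adjusted p = 0.00946) and Cdc6 (-0.42, adjusted p = 0.00967, both limma). Brca2 went the other way in that comparison. The 9 p53 targets all rose with DFO in both backgrounds, with Cdkn1a, the cell cycle inhibitor p21, at 15 ± 1.98 FPKM in siControl and 445 ± 19.2 FPKM in siControl+DFO. Their part in the levels of the repair genes was not tested, and in bulk RNA more cells in S phase and more transcript per cell cannot be told apart.

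Among the genes whose pattern was most like the mean z-score of the 9 over the 12 libraries were Vcan (r = 0.896), Asph (r = 0.889), Ankhd1 (r = 0.880) and Snx13 (r = 0.874), given as a description without a test. The libraries share their groups, so these coefficients mostly follow group differences. Vcan, an extracellular matrix proteoglycan, stood at 83.9 ± 7.02 FPKM in siControl, 73.2 ± 5.12 FPKM in siNCOA4, 99.3 ± 1.29 FPKM in siControl+DFO and 112 ± 12.5 FPKM in siNCOA4+DFO. The 9 genes themselves did not form 1 pattern, with r to their own mean from -0.251 for Fanca and 0.233 for Exo1 to 0.716 for Brca2.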

How the data were processed

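Total RNA of HT22 cells was made into stranded libraries with a low-input kit. Per the labels and the methods of the study, the authors trimmed reads with Trimmomatic 0.33, checked them with FastQC, aligned them with HISAT2 2.1.0 to mm10, counted them with featureCounts and tested counts with edgeR. The deposited values used here are FPKM per gene, 1 table per library. The tool that made the FPKM is not given in the sources used here. FPKM carry no depth, so the depth behind a value is unknown and no counting interval is given.

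Of 24347 entries, 4 that shared a name were dropped. Genes reaching 0.5 FPKM in 3 or more of the 12 libraries were tested as log2(FPKM + 0.1) with limma 3.58.1 (R 4.3.3; means model of 4 groups, variance trend, 8 residual degrees of freedom). P-values were two-sided and corrected (Benjamini-Hochberg) separately for each of 6 comparisons. The procedure was tested on simulated data. An exact permutation test of 3 against 3 libraries cannot go below p = 0.10. Groups were treated as independent samples. Tables were read with Python 3.11.15 and pandas 2.3.3.

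Named list genes were up to 3 per list with the largest called change in siControl+DFO vs siControl, plus any list gene called in siNCOA4 vs siControl or in siNCOA4+DFO vs siControl+DFO. Lists of markers served to check the cell type. The 9 genes and all lists were chosen with earlier results of these data known. Gene positions and lengths came from GENCODE on GRCm38 (95.8% of tested genes matched), promoters from RefSeq. A few items are not reported here. Alternatives were the pseudocount, the filter, scaling, replicate block, groups compared alone, no variance trend and each library left out.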

Additional observations from a re-analysis of the deposited data

Results flagged for a closer look

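None of the 9 repair genes was selected for a closer look. Among the genes of the lists examined beside them, 7 had an interaction of siRNA and DFO with an adjusted p below 0.05 (limma), which means that the change with DFO differed between siNCOA4 and siControl cells by a test of that difference. Of these, 5 were p53 targets: the interaction was -2.24 for Cdkn1a, -1.51 for Mdm2, -1.49 for Eda2r, -1.39 for Trp53inp1 and -1.03 for Ccng1 (log2). In the same order, they were already higher in siNCOA4 than in siControl without DFO, by 1.82, 0.72, 1.59, 1.30 and 1.39, all called. Between siNCOA4+DFO and siControl+DFO the differences were -0.42, -0.80, 0.10, -0.09 and 0.36, and only Mdm2 and Ccng1 were called. The S-phase gene Ccne2 had an interaction of -1.04 (adjusted p = 0.00439, limma), with a change with DFO of 1.93 in siControl and 0.88 in siNCOA4 cells. For the fibroblast marker Col1a1 the interaction was 1.14. Of all tested genes 0.671% had a positive and 1.43% a negative interaction at this threshold. Groups of 3 libraries were not searched for single outlying libraries in choosing these results. Replicate 3 of siNCOA4+DFO and replicate 1 of siControl are described against their groups in the results above.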

How the results depend on the processing

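The number of the 9 genes called in each comparison stayed within 1.5 times its main value under every alternative run, and Brca1, Blm and Brca2 kept each of their calls. Of 607 values recomputed under an alternative, 588 kept direction and side of the threshold, 5 passed the threshold only under the alternative and 14 changed sign. The 5 concerned DFO in siControl cells: Fanca (-0.30 with quantile scaling) and Fancd2 (0.28 with FPKM of at least 2 or without a variance trend, 0.29 with median-of-ratios scaling, and 0.34 without siControl replicate 2). Fancd2 was also called without siNCOA4+DFO replicate 3 (adjusted p = 0.037, limma). The 14 were uncalled and near 0. Quantile scaling gave -0.005 for Exo1 in siNCOA4+DFO vs siNCOA4 and 0.02 for the Brca1 interaction. With 1 library left out, the values ran from -0.02 to 0.03 for Fanca and from -0.07 to 0.02 for Fancd2 in siNCOA4 vs siControl, and from -0.07 to 0.07 for Brip1 with DFO in siControl cells. With DFO in siNCOA4 cells they ran from -0.004 to 0.09 for Exo1 and from -0.07 to 0.21 for Brip1. In siNCOA4+DFO Palb2 ran from -0.04 to 0.13 against siControl, and against siControl+DFO Brca1 ran from -0.02 to 0.06, Fanca from -0.04 to 0.16 and Exo1 from -0.04 to 0.11. The interactions ran from -0.10 to 0.01 for Brca1, from -0.05 to 0.15 for Fanca and from -0.06 to 0.22 for Brip1. The cause was not tested.

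Same-numbered replicates did not deviate together (r from -0.127 to 0.116 over 18 pairs, 2 of them over 0.1), so the numbers were not taken as pairs. With the replicate block the 9 genes had 2 calls with DFO in siControl cells, 3 in siNCOA4 cells, 1 between siNCOA4+DFO and siControl+DFO, and 0 in siNCOA4 vs siControl, as without it. FPKM hold no depth, so the precision of low values is unknown.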

Other observations

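Of the S-phase list, Ccne1, Mcm5 and Mcm6 were lower in siNCOA4 than in siControl cells in both media. Cyclin E1 (Ccne1), a partner of CDK2, stood at 17.4 ± 0.48 FPKM in siControl and 7 ± 1.02 FPKM in siNCOA4 (SD, n = 3), a fall of 1.31 on the log2 scale (adjusted p = 6.67e-05, limma), and it was lower with DFO as well (-0.84, adjusted p = 0.0013, limma). The replicative helicase subunits Mcm5 and Mcm6 were also lower without DFO (-0.29 and -0.22, adjusted p = 0.0331 and 0.0485, limma) and with DFO (-0.31 and -0.22, adjusted p = 0.0198 and 0.0433, limma). Ccne2 and Slbp, which binds histone mRNA, were higher in siNCOA4 without DFO (0.77 and 0.41, adjusted p = 0.000476 and 0.0149, limma).

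Of 4 astrocyte markers 2 were tested, and they went in opposite directions with DFO in siControl cells. Slc1a3, a glutamate transporter, stood at 36.1 to 45.6 FPKM in siControl, 21.7 to 25.9 in siNCOA4, 2.64 to 4.65 in siControl+DFO and 4.13 to 12 in siNCOA4+DFO. It fell with DFO by 3.54 (log2, adjusted p = 1.85e-06, limma). Aldh1l1, a folate enzyme, stood at 0.285 to 0.354 FPKM in siControl, 0.788 to 0.851 in siNCOA4, 0.535 to 0.839 in siControl+DFO and 2.4 to 2.68 in siNCOA4+DFO. With DFO in siControl cells it rose by 0.86 (adjusted p = 0.0175, limma). Gfap and Aqp4 never exceeded 0.685 FPKM. The microglial markers Aif1, Cx3cr1, Csf1r and P2ry12 never exceeded 0.685 FPKM, and the oligodendrocyte markers Mog and Mbp never exceeded 0.197 FPKM.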
